A study of Arabidopsis thaliana x Arabidopsis arenosa and Arabidopsis suecica with 6 samples.

Results

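The expression of leaf messenger RNA was compared between the F1 crosses TATT and TAAA, which make up 2 of the 6 samples of the series and 6 of its 16 libraries. TATT came from a cross of AlloF8 with Arabidopsis thaliana, and TAAA from a cross of AlloF8 with Arabidopsis arenosa. AlloF8 is a resynthesized allotetraploid of both species in generation F8, and it is named first in both crosses. TATT therefore holds 3 A. thaliana genomes (T) and 1 A. arenosa genome (A), whereas TAAA holds 1 T genome and 3 A genomes. These copy numbers, used throughout, follow from the crosses and were not measured for single genes. AlloF8 is the shared parent of both crosses. All plants grew under a day of 16 h light at 22 °C and 8 h dark at 20 °C, and RNA came from rosette leaves of allotetraploids 6 to 7 weeks old, before bolting. Which parent served as the mother is not stated, and nothing says that the 3 replicates of a cross were separate plants, so that p-values measure only the spread between these libraries.

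In an allopolyploid, most genes are present as homoeologs, the versions that each parent species brought in. A plant can hold different numbers of each parental genome, and the transcripts of a homoeolog may follow the number of its copies or depart from it where regulators, which both genomes share in one nucleus, set the output. If every copy gave the same output in both crosses, a T homoeolog would be 3 times as high in TATT as in TAAA, a log2 difference of 1.585, an A homoeolog would differ by -1.585, and the ratio of T to A by 3.17.

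The authors deposited, for each transcript and replicate, RPKM values of the T and the A homoeolog. RPKM are reads scaled to transcript length and library size, so depth is unknown and no counting interval is given. The tables of the 2 crosses listed 21478 transcripts of 16767 genes. Summed RPKM was 702957 to 780595 per library. Between 6.64% and 12.3% of the transcripts of a library were listed at 0 for both homoeologs and were taken as missing. No other total was under 2 RPKM, so a missing value stands for a low or absent transcript. Replicate 2 stood apart in both crosses, with 250 of 12531 genes over 2-fold above and 195 over 2-fold below both other replicates. The same counts were 2 and 5 for replicate 1, and 0 and 0 for replicate 3. Within TATT the correlation across genes was 0.848 between replicates 1 and 2 and 0.982 between 1 and 3, and within TAAA it was 0.923 and 0.979. Of the cell type markers, SEP2 was the one flower marker of 8 with a value, and NRT2.1 the one root marker of 7. The summed flower marker level was 0 to 3.26 RPKM in TATT and 2.06 to 4.19 RPKM in TAAA. The mesophyll marker genes RBCS, LHCB and RCA belong to the photosynthesis list described below. The amount of a tissue in the sample and its RNA per cell cannot be told apart in leaf extracts.

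The share of each parental genome in all expression went with its number of copies. T homoeologs gave 74.4%, 70.9% and 71.5% of the summed RPKM in replicates 1, 2 and 3 of TATT, against 21.9%, 20.4% and 23.2% in TAAA. The mean was 72.3% ± 1.87 in TATT and 21.8% ± 1.38 in TAAA (SD, n = 3 each), a difference of 50.4 percentage points. The libraries of the 2 crosses lay far apart, but an exact two-sided permutation test of 3 against 3 gives p = 0.1, the smallest it allows. For the median gene the T share was 75.9% to 76.1% in TATT and 23.2% to 24.1% in TAAA. In AlloF8, which has 2 copies of each genome, the T share of the median gene was 50.2% and 50.3% in its 2 libraries.

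The T homoeologs of most genes were higher in TATT, where they had 3 copies. By limma, 12433 of 13658 tested T homoeologs (91%) rose and 37 (0.271%) fell in TATT against TAAA, 91.3% in all. Here and below, values are listed for replicates 1, 2 and 3, differences are TATT minus TAAA on the scale of log2(RPKM + 0.5), and adjusted p-values are from limma with replicate number as a block. The median difference was 1.41, and 80% of genes lay between 0.74 and 2.09. Among the 10 largest rises were those of COR15A, GASA6, SEN1, KIN1 and AT3G50685. The T homoeolog of COR15A, which encodes a chloroplast protein that protects membranes in freezing, had 100.2, 8.24 and 165 RPKM in TATT, against 4.43, 0.222 and 2.81 RPKM in TAAA (log2 difference 4.53, SE 0.400, adjusted p = 0.000758). That of GASA6, a gibberellin-regulated gene, had 90.5, 27.8 and 168 RPKM in TATT, against 5.72, 1.19 and 8.44 RPKM in TAAA (log2 difference 4.06, SE 0.184, adjusted p = 0.000758). For both genes, every TATT library was above every TAAA library, although replicate 2 was the lowest of its cross. SEN1, a gene induced in darkness and senescing leaves, had 96.1, 16.4 and 57.1 RPKM in TATT, against 3.07, 1.43 and 5.34 RPKM in TAAA (log2 difference 3.73, SE 0.356, adjusted p = 0.000758). KIN1, a cold- and ABA-responsive gene, had a T homoeolog of 208, 15.2 and 82.7 RPKM in TATT, against 14.4, 1.37 and 2.73 RPKM in TAAA (log2 difference 3.85, SE 0.331, adjusted p = 0.000758). In KIN1 the lowest TATT library, replicate 2, was little above the highest TAAA library, replicate 1. The T homoeolog of AT3G50685 had 77.2, 26.5 and 51.5 RPKM in TATT, against 1.22, 0.503 and 0.477 RPKM in TAAA (log2 difference 5.33, SE 0.240, adjusted p = 0.000758), with no overlap.

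**Figure D1:**
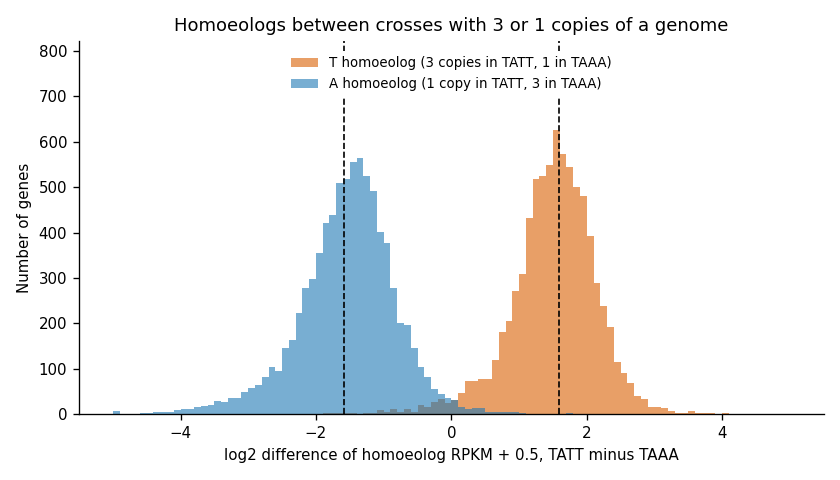
Number of genes (vertical axis) by the log2 difference of homoeolog RPKM + 0.5 between TATT and TAAA (horizontal axis), for genes whose homoeolog averaged at least 5 RPKM; orange bars are T homoeologs, blue bars are A homoeologs, the dashed lines mark the copy ratio of 1.585 and -1.585, and values beyond 5 are drawn at the edge. T homoeologs lie around the right line and A homoeologs around the left one, and the A homoeologs have a longer tail of genes far below their line.

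In 37 genes the T homoeolog fell although TATT has more T copies, and PRB1 had the largest fall. PRB1, a basic pathogenesis-related protein of the PR1 family, had a T homoeolog of 1.15, 5.32e-05 and 1.32 RPKM in TATT, against 94.8, 42.1 and 43.9 RPKM in TAAA (log2 difference -5.63, SE 0.362, adjusted p = 0.000758). The T homoeologs of 2 chitinase family genes also fell, chitinases being enzymes that cut fungal cell walls. AT3G47540 had 6.38, 49.6 and 5.15 RPKM in TATT, against 91.4, 134 and 50.8 RPKM in TAAA (log2 difference -2.78, SE 0.461, adjusted p = 0.00218), and AT2G43580 had 0.744, 10.9 and 1.601 RPKM in TATT, against 26.2, 34.1 and 18.5 RPKM in TAAA (log2 difference -3.07, SE 0.523, adjusted p = 0.00243). In these genes the TATT libraries were all below the TAAA libraries, with replicate 2 the highest of TATT for both chitinases. The T homoeolog of OMT1, an O-methyltransferase of lignin and flavonoid synthesis, was even between replicates, with 33.2, 38.4 and 38.8 RPKM in TATT, against 85.4, 89.1 and 74.3 RPKM in TAAA (log2 difference -1.16, SE 0.201, adjusted p = 0.00256). The other 6 of the 10 largest falls were AT4G12490, AT3G22600 and AT4G12500, which encode lipid-transfer-like proteins, the cysteine-rich peptide gene LCR67, the secretory protein gene AT2G15220 and AT3G04000, with differences of -1.72 to -1.01. PRB1 and PR1 are closely related genes, and how the authors assigned reads between related copies is not given in the sources used here.

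Against the copy ratio itself, few T homoeologs could be told apart from 3 to 1 after adjustment. With 0.5 RPKM added, 9 (0.0659%) lay beyond and 58 (0.425%) short of the ratio. At an unadjusted p under 0.05 by limma, 4285 of 13658 differed from it. The added 0.5 RPKM makes genes of low expression appear short of 3 to 1, and with an addition in proportion to the copies (0.75 RPKM for 3 copies and 0.25 RPKM for 1), 2 (0.0146%) lay beyond and 6 (0.0439%) short, with a median difference of 1.62. That addition in turn draws genes of low expression towards 3 to 1. The genes furthest beyond were AT3G50685 and GASA6, described above, then AT4G32340, XTH4 and ATCTH. XTH4, an enzyme that rejoins cell wall xyloglucans, had a T homoeolog of 145, 90.95 and 124 RPKM in TATT, against 11.3, 6.77 and 12.05 RPKM in TAAA, a difference of 3.53 (adjusted p against the ratio 0.0458, or 0.0530 with the addition in proportion to copies). Among the T homoeologs short of the ratio that changed by under 0.25, ASB1, a subunit of anthranilate synthase in tryptophan synthesis, had 14.6, 84.3 and 17.7 RPKM in TATT, against 17.6, 88.1 and 21.6 RPKM in TAAA, a difference of -0.20. NIA1, a nitrate reductase, had 3.47, 10.3 and 5.06 RPKM in TATT, against 4.12, 11.6 and 3.999 RPKM in TAAA, a difference of -0.03. With the addition in proportion to copies, neither passed against the ratio (adjusted p = 0.0530 and 0.0605). For both genes the libraries of the 2 crosses overlapped, with replicate 2 high in each cross. The ribosomal protein gene RPL10B (0.08) and the proton pump gene HA9 (0.02) were alike, with adjusted p against the ratio of 0.0482 and 0.0462, or 0.0578 for each with the addition in proportion to copies. By limma the counts against the ratio were 0 beyond and 0 short without replicate 1 (1834 at an unadjusted p under 0.05), 0 and 1 without replicate 3, and 806 and 2528 without replicate 2.

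The A homoeologs showed the opposite order. Of 13634 tested, 12570 (92.2%) fell and 41 (0.301%) rose in TATT, where 1 A genome was present, 92.5% in all. The median difference was -1.43, and the central 80% of genes spanned -2.23 to -0.69. The 10 largest falls included those of AT3G47540, PR1, BG3, WAK1, HAE and FSD1. The A homoeolog of AT3G47540 had 1.13, 16.5 and 1.11 RPKM in TATT, against 594, 754 and 447 RPKM in TAAA (log2 difference -7.37, SE 0.599, adjusted p = 0.000623). That of PR1, the classic marker of salicylate signalling, had 4.47, 253 and 18.3 RPKM in TATT, against 2249.9, 3341 and 1751 RPKM in TAAA (log2 difference -6.36, SE 0.907, adjusted p = 0.00131). BG3, a beta-1,3-glucanase that degrades a fungal wall polymer, had an A homoeolog of 34.1, 532 and 66.2 RPKM in TATT, against 2392, 3779.5 and 2642 RPKM in TAAA (log2 difference -4.75, SE 0.617, adjusted p = 0.000992). All TATT libraries of these genes lay below all TAAA libraries, and replicate 2 was the highest in TATT each time. WAK1, a cell wall-associated receptor kinase, had an A homoeolog of 2.92, 36.4 and 3.24 RPKM in TATT, against 139, 227 and 142 RPKM in TAAA (log2 difference -4.41, SE 0.562, adjusted p = 0.000946). HAE, a receptor kinase known from floral organ abscission, had 1.59, 10.9 and 1.72 RPKM in TATT, against 56.1, 149 and 61.4 RPKM in TAAA (log2 difference -4.43, SE 0.267, adjusted p = 0.000623). FSD1, the iron superoxide dismutase of the chloroplast, differed from these in that replicate 2 was no higher than the others, with 2.24, 0.754 and 0.775 RPKM in TATT, against 34.1, 29.7 and 48.3 RPKM in TAAA (log2 difference -4.50, SE 0.324, adjusted p = 0.000623).

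The 41 A homoeologs that rose did so although TATT holds 1 A genome by its cross and TAAA holds 3. ESP, the epithiospecifier protein that directs glucosinolate breakdown towards nitriles, had an A homoeolog of 53.7, 17.1 and 16.1 RPKM in TATT, against 11.7, 4.91 and 2.101 RPKM in TAAA (log2 difference 2.18, SE 0.233, adjusted p = 0.000671). CYSD1, a cysteine synthase, had 14.8, 7.93 and 12.7 RPKM in TATT, against 4.35, 2.62 and 2.44 RPKM in TAAA (log2 difference 1.75, SE 0.207, adjusted p = 0.000793). In CYSD1 and ESP the TATT libraries were all above the TAAA libraries, whose highest ESP value was in replicate 1. The largest rise was that of AT1G50290, which encodes a protein of no annotated function, with 10.2, 14.9 and 18.1 RPKM in TATT, against 0.828, 3.36 and 3.36 RPKM in TAAA (log2 difference 2.43, SE 0.244, adjusted p = 0.000637). The F-box genes AT1G27580 and AT1G27540 (1.73 and 1.52), the noncoding RNA genes AT1G69252 and AT1G67105 (1.72 and 1.09) and the transporter gene AT5G18840 (1.48) followed, with AT1G25230 (1.32) and the glycine-rich protein gene AT2G05540 (1.03). AZI1, a lipid-transfer-like protein of systemic immunity, also rose, with an A homoeolog of 126, 115 and 146 RPKM in TATT, against 60.3, 91.1 and 65.1 RPKM in TAAA (log2 difference 0.85, SE 0.218, adjusted p = 0.0117).

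At the adjusted threshold, limma called more A than T homoeologs against their copy ratio. At an unadjusted p under 0.05, with 0.5 RPKM added, the counts were closer, at 5241 of 13634 A and 4285 of 13658 T homoeologs. With 0.5 RPKM added, 577 (4.23%) lay beyond it, falling by more than 3-fold, and 1589 (11.7%) lay short of it or rose. With the addition in proportion to copies, which draws low genes towards 3 to 1, the counts were 692 (5.08%) and 677 (4.97%), with a median difference of -1.62. The excess of genes short of the ratio was not seen under that setting. At a minimum of 5 RPKM with 0.5 RPKM added, 348 of 8223 A homoeologs lay beyond and 732 short. These settings do not decide how large the excess is. The 5 furthest beyond were AT3G47540, PR1, AT5G42530, AT5G18470 and PGDH, a D-3-phosphoglycerate dehydrogenase of serine synthesis (-4.92). Among the A homoeologs with the highest expression that changed by under 0.25, CP29, a chloroplast RNA-binding protein, had 249, 107 and 248 RPKM in TATT, against 255, 148 and 268 RPKM in TAAA, a difference of -0.20 (adjusted p against the ratio 0.0221). ELP, an extensin-like protein, had 424, 115 and 398 RPKM in TATT, against 365, 135 and 295 RPKM in TAAA, a difference of 0.14 (adjusted p against the ratio 0.0217). For CP29 and ELP the libraries of the 2 crosses overlapped, with replicate 2 the lowest of each. The protein kinase gene STY46 differed by -0.01 and the folate transporter gene FOLT1 by -0.03, with 95% intervals of 0.51 and 0.50 on either side. Without replicate 1 or without replicate 3, limma called 0 A homoeologs against the ratio (2789 and 2883 at an unadjusted p under 0.05), and without replicate 2 the counts were 2105 beyond and 3357 short.

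The ratio of T to A within a gene is free of library scaling apart from the added 0.5 RPKM. It was higher in TATT for 13461 of 13536 genes (99.4%), with a median difference of 2.88, and lower for 0 genes by limma; at an unadjusted p under 0.05 the count was also 0. Against the ratio of copies, 359 genes (2.65%) lay beyond and 2615 (19.3%) short, or 484 (3.58%) and 291 (2.15%) with the addition in proportion to copies. At a minimum of 5 RPKM with 0.5 RPKM added, 254 of 7045 lay beyond and 730 short. Among called genes with 3 pairs whose homoeologs both averaged at least 5 RPKM, BG3 had one of the 5 largest differences: T gave 35.1, 54.8 and 34.9% in TATT, against 0.650, 1.61 and 0.971% in TAAA (log2 difference of the ratio 6.10, SE 0.411, adjusted p = 5.43e-07). UGT72E1, which attaches glucose to lignin precursors, had a T share of 90.5, 93.1 and 91.8% in TATT, against 2.84, 31.5 and 3.55% in TAAA (difference 5.88). In UGT72E1 replicate 2 of TAAA was far above its other libraries. The smallest difference of these called genes was that of CRK41, a cysteine-rich receptor-like kinase, of which T gave 84.9, 80.2 and 85.98% in TATT, against 79.01, 61.6 and 79.2% in TAAA (difference 0.82, adjusted p = 0.0234). OMTF3, a methyltransferase gene, had a T share of 58.1, 42.00 and 39.7% in TATT, against 37.9, 29.4 and 28.8% in TAAA (difference 0.85, adjusted p = 0.00266). In CRK41 and OMTF3 the T shares of the 2 crosses did not overlap, although both crosses had T in the majority for CRK41. In 15 genes the difference was below 0, and none of them passed. The highest ratio changes of the called genes were in AT2G01021 and in the ribosomal RNA gene AT3G41768, whose A homoeolog had 609.9, 5719.6 and 9970.5 RPKM in TATT, against 544, 7473 and 5679 RPKM in TAAA, with replicate 1 far below the others in both crosses.

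Total expression, the sum of both homoeologs, differed far less between the crosses than either homoeolog. Of 13756 genes tested, 920 (6.69%) were higher and 1115 (8.11%) lower in TATT, 14.8% in all, and the median difference was -0.04, with the central 80% of genes between -0.83 and 0.67. Of the lists described below, that of dark and low-sugar genes had 9 of 13 genes higher and that of glucosinolate genes 9 of 25 lower. Fewer members passed in the lists of photosynthesis (4 of 37 higher), of salicylate and defence (2 of 16 lower), of camalexin (1 of 7 lower) and of jasmonate (3 of 21 lower). All 3 TATT libraries were above all 3 TAAA libraries in 1863 of the 12531 genes with a value in all 6 (14.9%), and below them in 2107 (16.8%). When each library was scaled to the same median total, the median difference became 0.06, and 1464 genes were called higher and 1038 lower, which turned the balance of calls towards higher. Under that scaling 66 of 275 ribosomal protein genes, 8 of 22 starch genes and 4 of 25 glucosinolate genes were higher, against 40, 4 and 1 without it. These calls needed replicates 1 and 3: without replicate 1 or without replicate 3 limma called 0 genes (2592 and 2782 at an unadjusted p under 0.05), and without replicate 2 there were 2286 higher and 3157 lower of 12994 tested. Calls without replicate 2 were thus more frequent over all genes. The counts of each list below under that setting are to be read beside these. Without the block on replicate number, 111 genes were higher and 105 lower. Of the lists below, those of dark, ribosomal protein, disease resistance, flowering, ethylene and shade genes then had at least 1 call, and in the other 14 lists limma called 0 of 229 genes, with 52 at an unadjusted p under 0.05.

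The genes with the largest total rises had varied functions. AT2G45180, which encodes a lipid-transfer-like protein, had 2984, 965 and 2547 RPKM in TATT, against 443, 192 and 529 RPKM in TAAA (log2 difference 2.45, SE 0.170, adjusted p = 0.0238). ESP had 1539, 368 and 789 RPKM in TATT, against 211, 79.8 and 204 RPKM in TAAA (log2 difference 2.34, SE 0.221, adjusted p = 0.0239). MLP43, a major latex protein-like gene, had 43.4, 38.4 and 43.4 RPKM in TATT, against 12.7, 3.38 and 6.93 RPKM in TAAA (log2 difference 2.54, SE 0.323, adjusted p = 0.0268). In all 3 genes the crosses did not overlap, and MLP43 had the most even TATT libraries. FLA13, a cell surface arabinogalactan protein, had 62.7, 16.7 and 36.4 RPKM in TATT, against 6.04, 4.89 and 6.26 RPKM in TAAA (log2 difference 2.46, SE 0.324, adjusted p = 0.0275). AT1G30280, which encodes a J-domain protein, a partner of HSP70 chaperones, had 71.9, 8.64 and 59.1 RPKM in TATT, against 5.502, 3.15 and 2.69 RPKM in TAAA (log2 difference 3.05, SE 0.581, adjusted p = 0.0395). Its level in replicate 2 of TATT was far below replicates 1 and 3. AT4G32340 (2.35) and AT1G50290 (2.31) completed the group together with BT2, COR15A and COR413IM1, which are described below.

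**Figure D2:**
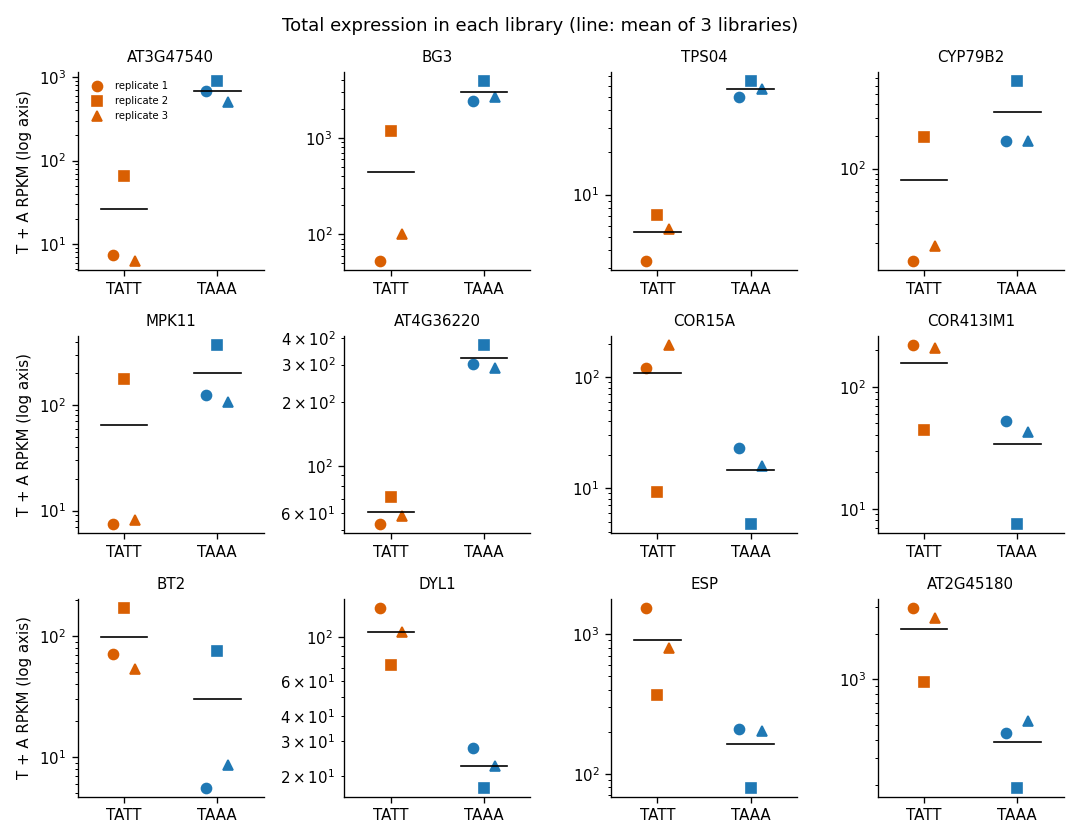
Total RPKM (T + A, log axis) of 12 genes in each library of TATT (orange, left) and TAAA (blue, right); circles, squares and triangles are replicates 1, 2 and 3, and lines are means of 3 libraries. The defence genes AT3G47540, BG3 and MPK11 have squares well above the other TATT points, COR15A and COR413IM1 have squares below them, and AT4G36220 and TPS04 show the crosses apart with little spread.

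Genes induced in darkness or by low sugar, which plant cells express when carbon is short, had the highest median difference of total expression of the lists examined. The lists and their members were chosen with earlier results of these data known, so this rank is not an independent test. Of 13 tested, 9 rose, 0 fell and 4 did not pass, and the median was 1.72, beside -0.04 over all genes tested. DYL1, a dormancy-associated gene, had 139.9, 71.8 and 106 RPKM in TATT, against 27.7, 17.4 and 22.4 RPKM in TAAA (log2 difference 2.18, SE 0.143, adjusted p = 0.0238). Its relative AT2G33830 had 978, 786 and 868 RPKM in TATT, against 236, 173 and 172 RPKM in TAAA (log2 difference 2.19, SE 0.146, adjusted p = 0.0238). In both genes each TATT library was more than 2-fold above the highest TAAA library. BT2, a BTB and TAZ domain regulator of sugar and nitrogen responses, had 70.5, 171 and 53.1 RPKM in TATT, against 5.59, 75.5 and 8.62 RPKM in TAAA (log2 difference 2.43, SE 0.460, adjusted p = 0.0395). STP1, a hexose carrier of the plasma membrane, had 423, 253 and 355 RPKM in TATT, against 215, 141 and 189.8 RPKM in TAAA (log2 difference 0.90, SE 0.137, adjusted p = 0.0316). BT2 overlapped between the crosses, since replicate 2 of TAAA was above replicates 1 and 3 of TATT, whereas STP1 did not overlap. DIN10 (1.72), BCAT2 (1.38), GASA6 (1.55), AT3G15450 (1.74) and AT2G20670 (2.05) also rose, and SEN1 did not pass (1.86, adjusted p = 0.0619). The median difference of the list was 2.05, 1.08 and 1.62 in the pairs of replicates 1, 2 and 3. The T homoeologs of all 13 genes rose, as did 91% of all T homoeologs, with a median of 3.25 beside 1.41 over all. Positions above or below the copy ratio, here and for the lists that follow, were taken with the addition in proportion to copies, and above means over 1.585 for T and over -1.585 for A. By that measure 52.7% of all T and 47.5% of all A homoeologs lay above their ratio, and all 13 T homoeologs of the list did. Of the 13 A homoeologs, 1 rose and 4 fell, with a median of -0.30 beside -1.43 over all, and 11 lay above the copy ratio. Without replicate 2, 10 of the 13 totals rose, and without the block 2 did.

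Nuclear genes of photosynthesis, which encode the antenna, photosystem and Rubisco proteins of the chloroplast, had mostly positive differences of total expression, of which few passed the test. Of 37 tested, 4 rose (beside 6.69% of all genes) and 33 did not pass. The median was 0.40, and 33 differences were positive, beside 6463 of 13756 over all genes. RBCS3B, a Rubisco small subunit, had 2256, 679 and 1556 RPKM in TATT, against 922, 356 and 585 RPKM in TAAA (log2 difference 1.21, SE 0.167, adjusted p = 0.0293). PETE2, a plastocyanin that carries electrons to photosystem I, had 3134, 1866 and 2652 RPKM in TATT, against 1527, 805 and 1627 RPKM in TAAA (log2 difference 0.98, SE 0.171, adjusted p = 0.0361). Replicate 2 was the lowest of each cross for both, and the RBCS3B value of replicate 2 of TATT lay below replicate 1 of TAAA. PSBO1, of the oxygen-evolving complex, and PSAG, a subunit of photosystem I, rose by 0.65 and 0.68. Reads may be shared between near-identical members of the RBCS family. The T homoeologs of the list rose in 37 of 37 genes, with a median of 2.29, and the A homoeologs fell in 36 of 37, with a median of -1.35, shares near the 91% and 92.2% over all T and A homoeologs. The summed level of the list was 147828, 58646 and 119475 RPKM in TATT, against 97217, 47922 and 90139 RPKM in TAAA, lowest in replicate 2 in both crosses. Without replicate 2, 8 of the 37 totals rose, and without the block 0 did. In starch metabolism, 4 of 22 genes rose (beside 6.69% of all genes) and 0 fell, with a median of 0.24. Without replicate 2, 7 starch genes rose and 3 fell, and without the block limma called 0, with 8 at an unadjusted p under 0.05. The 4 that rose were ADG1, a subunit of the enzyme that starts starch synthesis, the branching enzyme gene SBE2.1, and SEX4 and DPE1, which act in starch breakdown. ADG1 had 105, 74.04 and 103 RPKM in TATT, against 58.5, 37.97 and 63.3 RPKM in TAAA (log2 difference 0.83, SE 0.140, adjusted p = 0.0354). SEX4 had 26.8, 41.8 and 27.7 RPKM in TATT, against 16.2, 18.2 and 18.4 RPKM in TAAA (log2 difference 0.82, SE 0.176, adjusted p = 0.0463). The crosses did not overlap in either gene, and replicate 2 of TATT was its lowest library for ADG1 and its highest for SEX4.

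Ribosomal protein genes had mostly positive differences. Of 275 tested, 233 differences were positive, beside 6463 of 13756 over all genes. Of the 275 genes, 40 rose and 3 fell, beside 6.69% and 8.11% of all genes. The median was 0.37, beside -0.04 over all genes, with pair medians of 0.47, 0.35 and 0.25. Of their homoeologs, 241 of 275 T homoeologs and 230 of 275 A homoeologs lay above their copy ratio with the addition in proportion to copies, beside 52.7% and 47.5% of all. Their medians were 0.43 above 1.585 for T and 0.44 above -1.585 for A, so that the median A homoeolog of the list was lower by less than 3-fold. The summed level of the list was 36019, 29314 and 28320 RPKM in TATT, against 25031, 23081 and 23091 RPKM in TAAA, so that every TATT library was above every TAAA library. Without replicate 2, 99 of 268 rose and 6 fell, and without the block 4 rose and 1 fell. For the 28 genes of the proteasome, which degrades tagged proteins, 0 rose and 1 fell (beside 6.69% and 8.11% of all genes), with a median of -0.12. Without replicate 2, 1 rose and 4 fell, beside 2286 and 3157 of 12994 genes over all.

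Cold and drought genes moved in both directions. Of 17 tested, 4 rose and 2 fell, beside 6.69% and 8.11% of all genes, with a median of 0.17. Without the block limma called 0 of the 17, with 3 at an unadjusted p under 0.05. COR15B, a close copy of COR15A, had 355, 88.5 and 282 RPKM in TATT, against 80.8, 18.7 and 68.9 RPKM in TAAA (log2 difference 2.12, SE 0.137, adjusted p = 0.0238). COR15A had 119.8, 9.32 and 196 RPKM in TATT, against 22.95, 4.72 and 15.9 RPKM in TAAA (log2 difference 2.28, SE 0.512, adjusted p = 0.0494). KIN2, a small cold- and ABA-responsive protein, had 1317, 217 and 1572 RPKM in TATT, against 391, 129 and 418 RPKM in TAAA (log2 difference 1.47, SE 0.271, adjusted p = 0.0379). In these 3 genes replicate 2 was the lowest library of each cross, and for COR15A and KIN2 replicate 2 of TATT lay within the TAAA range. COR413IM1, a cold-regulated protein of the chloroplast inner membrane named by the size of its change, had 222, 44.6 and 208 RPKM in TATT, against 52.6, 7.43 and 42.7 RPKM in TAAA (log2 difference 2.28, SE 0.154, adjusted p = 0.0238). There too replicate 2 of TATT lay within the TAAA range. RAB18, a dehydrin of ABA response, rose by 0.66. LTI65, a drought- and salt-induced gene also called RD29B, went the other way, with 2.63 and 6.32 RPKM in replicates 1 and 3 of TATT, against 32.2, 20.9 and 29.5 RPKM in TAAA, and no value in replicate 2 of TATT (log2 difference -2.76, SE 0.366, adjusted p = 0.0341, 2 pairs). RD26, a NAC factor of dehydration response, had 11.6, 26.4 and 17.8 RPKM in TATT, against 19.4, 62.9 and 32.8 RPKM in TAAA (log2 difference -0.94, SE 0.165, adjusted p = 0.0364). For RD26 as well, replicate 2 of TATT lay within the TAAA range.

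Growth regulators of the shade list included 2 rises in 8 genes (beside 6.69% of all genes), with a median of 0.67. PAR1, a repressor of shade-induced elongation, had 38.1 and 38.8 RPKM in replicates 1 and 3 of TATT, against 3.33 and 4.81 RPKM in replicates 1 and 3 of TAAA, with no value in replicate 2 of either cross (log2 difference 3.11, SE 0.212, adjusted p = 0.024, 2 pairs). Its partner PAR2 had 13.96, 3.06 and 13.4 RPKM in TATT, against 4.58 and 3.805 RPKM in replicates 1 and 3 of TAAA (log2 difference 1.60, SE 0.177, adjusted p = 0.0304, 2 pairs). In the clock list 1 of 15 genes rose, a share near the 6.69% over all genes, with a median of 0.11. This was ELF4, a member of the evening complex, with 40.7, 95.4 and 44.6 RPKM in TATT, against 18.99, 53.8 and 24.3 RPKM in TAAA (log2 difference 0.92, SE 0.141, adjusted p = 0.0316). Replicate 2 was the highest ELF4 library of both crosses, and replicate 2 of TAAA exceeded replicates 1 and 3 of TATT. Without replicate 2, 2 clock genes rose and 2 fell, beside 2286 and 3157 of 12994 genes over all.

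**Figure D3:**
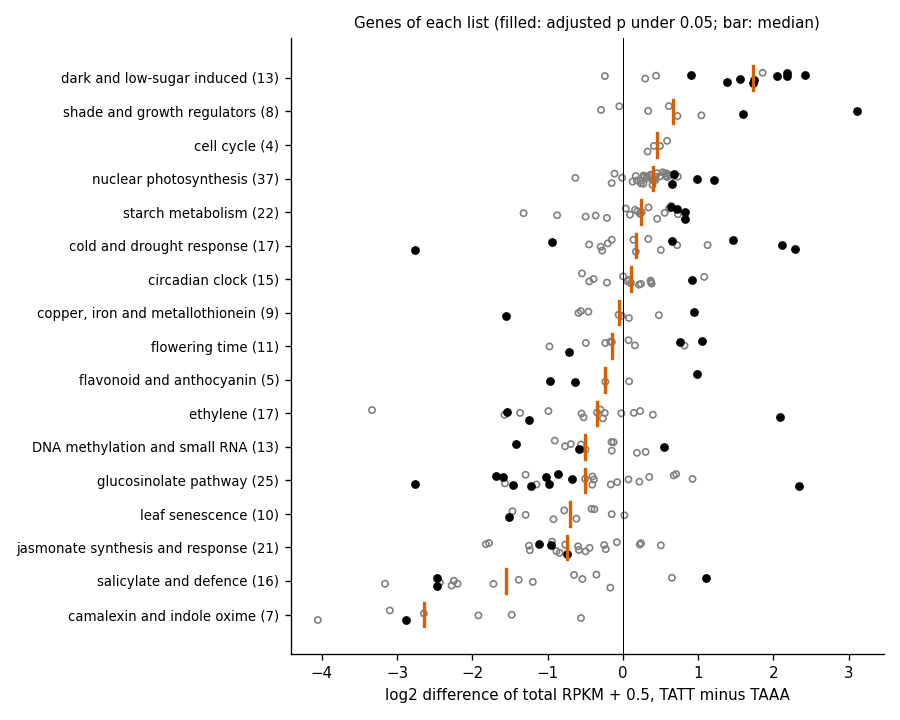
Log2 difference of total RPKM + 0.5 between TATT and TAAA (horizontal axis) for each gene of 17 written lists (vertical axis, number of genes tested in parentheses); filled points passed an adjusted p of 0.05, open points did not, and orange bars are list medians. The list of dark and low-sugar genes lies furthest right, with 9 filled points, and the lists of camalexin and of salicylate and defence lie furthest left, mostly with open points. Lists were chosen with earlier results of these data known.

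The 10 largest total falls included genes of defence and of other functions. AT3G47540, the chitinase family gene described above, had 7.51, 66.05 and 6.26 RPKM in TATT, against 685, 889 and 498 RPKM in TAAA (log2 difference -5.45, SE 0.568, adjusted p = 0.0243). BG3 had 52.5, 1177 and 102 RPKM in TATT, against 2407, 3841 and 2668 RPKM in TAAA (log2 difference -3.97, SE 0.756, adjusted p = 0.0395). Both had no overlap between the crosses, and replicate 2 was the highest library of each cross. TPS04, the terpene synthase that makes geranyllinalool, a volatile of attacked leaves, had 3.33, 7.096 and 5.67 RPKM in TATT, against 50.04, 64.5 and 57.3 RPKM in TAAA (log2 difference -3.35, SE 0.179, adjusted p = 0.0238). MPK11, a MAP kinase of immune signalling, had 7.41, 178 and 8.07 RPKM in TATT, against 124, 375 and 108 RPKM in TAAA (log2 difference -2.90, SE 0.604, adjusted p = 0.044). TPS04 was even between replicates, but in MPK11 replicate 2 of TATT exceeded replicates 1 and 3 of TAAA. AGP5, an arabinogalactan protein, had 8.65, 219.9 and 17.5 RPKM in TATT, against 180.1, 493 and 198 RPKM in TAAA (log2 difference -2.98, SE 0.617, adjusted p = 0.0438), with the same overlap in replicate 2. AT5G35525 of the PLAC8 family (-3.67), AT4G12500 (-3.38), the RNA gene AT3G15536 (-3.37), PGDH (-3.04) and the thioredoxin-fold gene AT5G38900 (-2.92) were the others of the 10 largest falls.

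The salicylate and defence list held 1 rise and 2 falls in 16 genes (beside 6.69% and 8.11% of all genes), with a median of -1.55. EDS5, the transporter of salicylate synthesis, had 5.24, 62.7 and 6.48 RPKM in TATT, against 64.2, 123 and 54.1 RPKM in TAAA (log2 difference -2.48, SE 0.511, adjusted p = 0.0434). PBS3, which acts in the next step of the pathway, had 2.65, 24.4 and 3.65 RPKM in TATT, against 34.8, 45.8 and 33.3 RPKM in TAAA (log2 difference -2.47, SE 0.529, adjusted p = 0.0462). In both, TATT in replicates 1 and 3 was far below TAAA, while in replicate 2 it was within the TAAA range for EDS5 and just below it for PBS3. ICS1, the enzyme that starts salicylate synthesis, had 4.58, 60.3 and 5.83 RPKM in TATT, against 47.2, 98.00 and 46.8 RPKM in TAAA and did not pass (adjusted p = 0.0521). PR1 had 47.6, 4378 and 183 RPKM in TATT, against 2959, 4443 and 2097 RPKM in TAAA and did not pass either (-3.16, SE 1.11, adjusted p = 0.109). AZI1 was the gene that rose, with 169, 131 and 186 RPKM in TATT, against 63.4, 93.5 and 68.6 RPKM in TAAA (log2 difference 1.11, SE 0.240, adjusted p = 0.0468). The median of the list was -2.71, 0.19 and -2.27 in the pairs of replicates 1, 2 and 3, so that the direction in replicate 2 was the opposite of the others. Its summed level was 504, 9761 and 849 RPKM in TATT, against 4564, 7154 and 3435 RPKM in TAAA. Without replicate 2, 14 of the 16 genes fell and 1 rose, beside 3157 and 2286 of 12994 genes over all. Without the block limma called 0 of the 16, with 3 at an unadjusted p under 0.05. For the 75 disease resistance protein genes, which encode immune receptors, 3 rose and 8 fell (beside 6.69% and 8.11% of all genes), with a median of -0.30. Their pair medians were -0.49, 0.36 and -0.68, and without replicate 2, 36 of 64 fell and 7 rose.

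Genes that turn tryptophan into indole defence compounds had negative median differences in each replicate pair, but few passed the test. In the list of camalexin and indole oxime synthesis, 1 of 7 genes fell, beside 8.11% of all genes, and 6 did not pass. The median was -2.64, and the pair medians were -2.54, -1.29 and -3.24, with 3 of the 7 genes complete in 2 pairs. CYP79B2, which makes indole oxime from tryptophan, had 13.6, 199.8 and 18.9 RPKM in TATT, against 180.0, 656 and 183 RPKM in TAAA (log2 difference -2.88, SE 0.405, adjusted p = 0.0303). PAD3, the last enzyme of camalexin synthesis, had 148 and 5.61 RPKM in replicates 2 and 3 of TATT, against 246, 785 and 318 RPKM in TAAA, with no value in replicate 1 of TATT, and did not pass (-4.05, adjusted p = 0.0565, 2 pairs). All 7 A homoeologs of this list fell, beside 92.2% of all A homoeologs, with a median of -3.51 beside -1.43, while of the T homoeologs 1 rose and 6 did not pass, the median being -0.53 beside 1.41. Of the 7 T homoeologs 1 lay above its copy ratio, and of the A homoeologs 0 did.

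Of 25 glucosinolate genes, 1 rose and 9 fell (beside 6.69% and 8.11% of all genes), with a median of -0.50. Glucosinolates are sulfur compounds that leaves break down when damaged. SUR1, UGT74B1, SOT16, SOT17 and SOT18, which act on the shared steps of synthesis, fell by 0.67 to 1.68. SOT16 had 20.96, 141 and 25.7 RPKM in TATT, against 77.6, 307 and 69.1 RPKM in TAAA (log2 difference -1.47, SE 0.191, adjusted p = 0.0274). CYP79F2, of the methionine-derived branch, had 6.72, 7.55 and 13.3 RPKM in TATT, against 32.6, 12.8 and 49.4 RPKM in TAAA (log2 difference -1.59, SE 0.315, adjusted p = 0.0412). SOT16 was highest in replicate 2 of both crosses and CYP79F2 was not. Among proteins of breakdown, the myrosinase TGG2 fell by 1.02, the nitrile-specifier NSP5 by 1.23 and the myrosinase-binding protein MBP2 by 2.77, whereas ESP, as described above, rose. MBP2 had 8.11, 5.396 and 17.1 RPKM in TATT, against 108, 14.4 and 174 RPKM in TAAA, and replicate 2 of TAAA lay below replicate 3 of TATT. NSP5 had 36.4, 88.1 and 29.6 RPKM in TATT, against 78.8, 172 and 91.6 RPKM in TAAA, where replicate 2 of TATT lay above replicate 1 of TAAA. Pair medians of the list were -0.87, 0.22 and -0.71, and without replicate 2, 17 of 25 genes fell and 4 rose. Without the block limma called 0 of the 25, with 8 at an unadjusted p under 0.05.

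Jasmonate genes, of a hormone made after wounding, numbered 21, of which 0 rose and 3 fell (beside 6.69% and 8.11% of all genes), with a median of -0.74. AOC3, an enzyme of jasmonate synthesis, had 70.7, 187 and 96.5 RPKM in TATT, against 153, 547 and 156 RPKM in TAAA (log2 difference -1.12, SE 0.207, adjusted p = 0.0385), and OPR3, a later enzyme, had 76.8, 184 and 94.5 RPKM in TATT, against 139.6, 322 and 140.2 RPKM in TAAA (log2 difference -0.74, SE 0.145, adjusted p = 0.0404). JAZ1, a repressor of the jasmonate response that jasmonate induces, had 27.1, 61.8 and 36.5 RPKM in TATT, against 49.8, 150.0 and 60.2 RPKM in TAAA (log2 difference -0.95, SE 0.169, adjusted p = 0.0368). The 3 genes were highest in replicate 2 of both crosses, and there TATT was above replicates 1 and 3 of TAAA. The pair medians were -0.55, -1.27 and -0.52, which have the same sign, and without replicate 2, 12 of 20 genes fell and 1 rose, whereas without the block limma called 0, with 6 at an unadjusted p under 0.05. In the ethylene list, 1 of 17 genes rose and 2 fell, shares near those over all genes (6.69% and 8.11%), with a median of -0.34. ACS6, which makes the ethylene precursor, had 9.71, 26.1 and 10.12 RPKM in TATT, against 29.5, 71.3 and 32.5 RPKM in TAAA (log2 difference -1.54, SE 0.136, adjusted p = 0.0239). EBP, an ethylene response factor, had 153, 84.9 and 113 RPKM in TATT, against 28.04, 31.3 and 20.6 RPKM in TAAA (log2 difference 2.09, SE 0.252, adjusted p = 0.0262). Neither overlapped between the crosses, although ACS6 in replicate 2 of TATT was just under the lowest TAAA library. ERF2 fell by 1.24, and without replicate 2, 6 of 15 genes of the list fell and 2 rose. Of 10 genes of leaf senescence, 0 rose and 1 fell (beside 6.69% and 8.11% of all genes), with a median of -0.70. The fall was that of WRKY6 (-1.51), and SAG12, the usual marker of advanced senescence, had no value. Without replicate 2, 6 of 8 senescence genes fell.

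The remaining lists held few calls with all 3 replicates, and their counts stand beside 6.69% higher and 8.11% lower over all genes. In flowering time, MAF2, a relative of the repressor FLC, had 10.8, 15.4 and 12.8 RPKM in TATT, against 5.92, 5.88 and 6.04 RPKM in TAAA (log2 difference 1.05, SE 0.158, adjusted p = 0.0312), SPL3, which promotes flowering, rose by 0.76, and SOC1, a floral integrator, fell by 0.72, in 11 genes with a median of -0.15. Without replicate 2, 3 of these 11 rose and 3 fell, and in the list of metals 1 of 9 rose and 3 fell. Over all genes, 2286 of 12994 rose and 3157 fell under that setting. Of 13 genes of DNA methylation and small RNA, 1 rose and 2 fell, with a median of -0.50, and without replicate 2, 1 rose and 7 fell. DRM2, the methyltransferase of RNA-directed DNA methylation, had 4.75, 4.54 and 4.12 RPKM in TATT, against 2.87, 2.98 and 2.84 RPKM in TAAA (log2 difference 0.55, SE 0.118, adjusted p = 0.0466). DML2, which removes DNA methylation, had 2.29, 5.08 and 2.59 RPKM in TATT, against 8.95, 9.82 and 8.91 RPKM in TAAA (log2 difference -1.42, SE 0.211, adjusted p = 0.0311). Neither gene overlapped between the crosses, and NRPE1, the large subunit of RNA polymerase V, fell by 0.59. In the list of metals, 1 of 9 genes rose, the metallothionein MT2A (0.94), and 1 fell, FSD1, with 21.7, 12.3 and 11.4 RPKM in TATT, against 39.2, 36.6 and 56.9 RPKM in TAAA (log2 difference -1.55, SE 0.294, adjusted p = 0.0395). Of 5 flavonoid genes with values, 1 rose, the chalcone isomerase gene AT3G55120 (0.99), and 2 fell, F3H (-0.97) and UGT78D2 (-0.64). The 3 phloem markers summed to 472 to 602 RPKM in TATT and 739 to 1027 RPKM in TAAA, and PP2-A1, a phloem lectin, had 209.7, 256 and 260.2 RPKM in TATT, against 463, 457 and 663 RPKM in TAAA (log2 difference -1.11, SE 0.166, adjusted p = 0.0312). The phloem markers did not move together. Of their 3 total differences 1 was positive, at 0.50, the median was -0.31, and 2 did not pass. The part of phloem content in other results was not tested. The 4 cell cycle genes tested did not pass, with a median of 0.45.

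Where the total of a gene changed, both homoeologs mostly lay on the same side of their copy ratio. This was examined in 7046 genes whose homoeologs both averaged at least 5 RPKM, with 0.5 RPKM added rather than the addition in proportion to copies. Over all 7046 genes the median departure from the copy ratio was -0.04 for T and 0.12 for A. Of the 458 with a called total rise, 438 (95.6%) had both homoeologs above the ratio, and of the 519 with a called fall, 489 (94.2%) had both below. Among the 6069 genes without a call, 39.3% had both above and 32.8% both below. DYL1 was a rise of this kind, with T at 3.07 and A at 0.39, against copy ratios of 1.585 and -1.585. ACS6 was such a fall, with T at 0.28 and A at -3.23. AT2G33830 was an exception: its T homoeolog had 918, 766 and 847 RPKM in TATT, against 99.9, 70.1 and 62.2 RPKM in TAAA (3.46), and its A homoeolog, at -1.95, was below the copy ratio. The departures of T and A from their copy ratios had a Pearson r of 0.72 across the 7046 genes. Genes are not independent replicates, the total is the sum of the parts, and both homoeologs of a gene come from the same libraries.

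**Figure D4:**
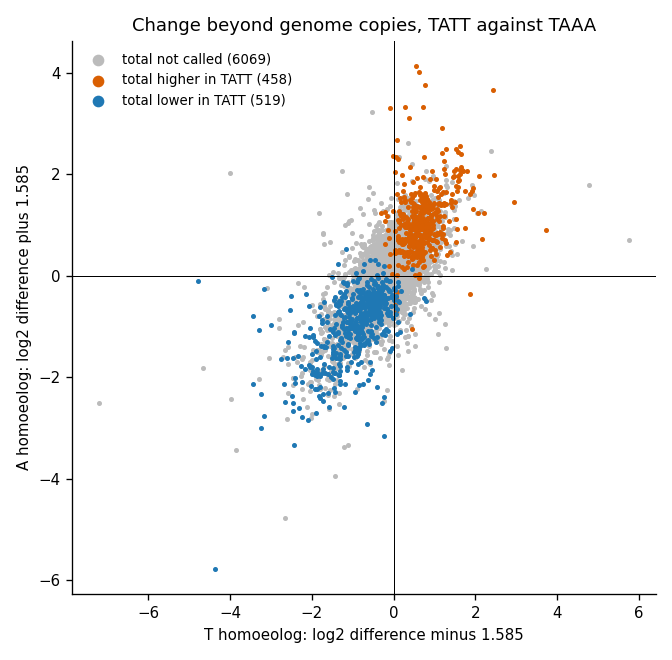
Departure of each homoeolog from the ratio of genome copies, with 0.5 RPKM added, for 7046 genes: the T homoeolog's log2 difference (TATT minus TAAA) minus 1.585 on the horizontal axis and the A homoeolog's plus 1.585 on the vertical axis. Orange points, with totals higher in TATT, lie mostly in the upper right field, blue points, with lower totals, mostly in the lower left field, and grey points were not called.

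The direction of the total difference also went with the homoeolog balance in the shared parent. Genes were grouped by the T share of their expression in AlloF8. Where AlloF8 expressed under 20% from T, 340 genes had a median total difference of -0.99 and 44.4% were called lower in TATT. Where T gave 80% or more, 299 genes had a median of 0.52 and 33.8% were called higher. In the 7792 genes with a T share of 40% to 60%, 5.20% were called higher and 5.54% lower. If each homoeolog kept its AlloF8 output per copy, the medians would be -1.08 in the lowest group and 1.04 in the highest. The observed median was near that value in the lowest group and lower than it in the highest. Across 13217 genes, observed and so computed differences had a Pearson r of 0.40. Of the 896 genes called higher with AlloF8 values, 29.5% had a computed difference of at least 0.5, and of the 1052 called lower, 32.3% had one of -0.5 or below. The 2 AlloF8 libraries were far apart for some of these genes, such as PR1, at 2685 and 56.0 RPKM in total, and ELP, at 120.2 and 1226 RPKM.

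**Figure D5:**
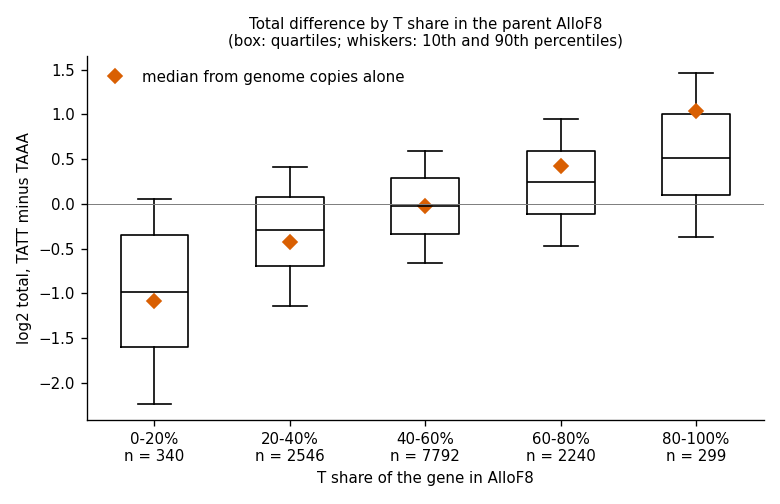
Log2 difference of total expression between TATT and TAAA (vertical axis) for genes grouped by the T share of their expression in AlloF8 (horizontal axis, with the number of genes); boxes are quartiles with the median, whiskers the 10th and 90th percentiles, and orange diamonds the median that genome copies alone would give. Medians go up from -0.99 to 0.52 with the T share, and the diamond lies above the median where T gave 60% or more.

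Some genes had values in one cross and none in the other. In 125 of 16767 genes all 3 libraries of TATT had a value and those of TAAA had none, and in 188 genes the reverse held. Of these, 24 and 61 averaged at least 5 RPKM. No value means either a listing at 0 or a transcript that the table of that cross did not list. Of the 21478 transcripts in either table, 19345 were in both, and each gene was judged by 1 transcript. The highest of the first kind was AT1G78450, of a heme-binding protein family, with 39.9, 8.54 and 33.0 RPKM in TATT and no value in TAAA. SAUR26, of a family of auxin-induced growth genes, had 10.2, 36.2 and 14.4 RPKM in TATT, followed by AT4G24420, CDT1 and AT4G19430. Most of the SAUR26 transcript came from the A homoeolog, with 7.97, 28.5 and 11.6 RPKM. Highest of the second kind was AT2G44240, with 53.8, 166.8 and 79.3 RPKM in TAAA, of which T gave 1.21, 0.000318 and 1.64 RPKM. AT1G09400, AT5G03480, AT3G46480 and AT1G61840 followed, and their T homoeologs in TAAA were at most 1.87 RPKM. AT2G44240 and these 4 genes also had no value in all 3 libraries of TTTA, the other cross with 3 T genomes.

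The same change of dosage was made with AlloF8 named second, in the crosses TTTA and AATA, so the difference of TATT from TAAA could be set against that of TTTA from AATA in one fit over 12 libraries. For total expression, 2 of 13371 genes (0.015%) differed. AT4G36220, which encodes ferulic acid 5-hydroxylase, an enzyme of syringyl lignin synthesis, had 52.95, 71.3 and 57.9 RPKM in TATT, against 302, 373 and 290.3 RPKM in TAAA, and 62.3, 75.2 and 68.0 RPKM in TTTA, against 85.5, 130.0 and 77.6 RPKM in AATA. Its log2 difference was -2.40 in the first pair of crosses and -0.48 in the second (difference -1.92, SE 0.188, adjusted p = 0.0279). AAP4, an amino acid permease, had 27.7, 26.3 and 29.8 RPKM in TATT, against 52.9, 42.3 and 55.2 RPKM in TAAA, and 25.3, 26.2 and 32.2 RPKM in TTTA, against 16.3, 10.6 and 15.6 RPKM in AATA. Its difference was -0.82 in the first pair of crosses and 0.97 in the second (difference -1.79, SE 0.202, adjusted p = 0.0468). In both genes the level in TAAA was above that of the other 3 crosses in every library, and without replicate 1 or replicate 3 neither passed. At an unadjusted p under 0.05, 1869 genes differed, and without replicate 2 the adjusted test called 2234. For the ratio of T to A, limma called 0 of 13248 genes (0%), with 916 at an unadjusted p under 0.05.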

How the data were processed

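The series sequenced leaf poly(A) RNA from 6 allotetraploid samples, of which TATT and TAAA were compared. The authors deposited RPKM per homoeolog and transcript in 3 replicate columns per cross. The genome build was TAIR 9, per the submitters' processing notes; the aligner, the filters and how reads were split between homoeologs were not given in the sources used here. Values are normalized, so the depth per library, and the precision it gives, is unknown.

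1 transcript stood for each gene, the one with the highest mean over the 6 columns. Pairs at 0 were missing, as were transcripts that the table of a cross did not list. Testing required an average of 1 RPKM or more and at least 2 complete pairs. Log2(RPKM + 0.5) was fitted with limma 3.58.1 in R 4.3.3 (lmFit, then eBayes with trend; two-sided tests, Benjamini-Hochberg adjustment, threshold 0.05), with cross and replicate number as terms, and tested against no difference and against the copy ratio. The rule of the comparison pairs the columns by number, and the numbers were used as a block. Deviations of same-numbered libraries from their cross means correlated at 0.53, 0.60 and 0.44 across 12531 genes. Unlike-numbered libraries 1 and 3 also correlated, at 0.36 (TATT 1 with TAAA 3) and 0.34 (TATT 3 with TAAA 1). These values thus set replicate 2 apart more clearly than they tell pairs 1 and 3 from each other. Cross order was tested in a fit over 12 F1 libraries. The fits were tested on simulated data. Gene symbols are those of the TAIR10.1 annotation, which held 99.2% of the codes. No sequences or coordinates were used.

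Genes named were, for total expression and each homoeolog, the 10 with the largest called change in each direction (3 pairs in the same direction, mean of at least 5 RPKM). Of homoeologs called against the copy ratio, the 5 furthest beyond it were taken. On the short side, up to 5 were taken whose change kept the sign of the copies, and 5 of high expression with a change under 0.25. Also named were the 5 ratios at each end among those called, with 3 pairs and both homoeologs at 5 RPKM or more. The called interactions, 5 genes with no value in one cross, and members of 339 written list entries completed the set. Members and lists were chosen with earlier results of these data known. Alternatives were the pseudocount, the minimum level, a median scaling, the block, the set of columns and the omission of each replicate; the addition in proportion to copies was chosen after seeing the data. Figures were drawn with matplotlib 3.10.9.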

Additional observations from a re-analysis of the deposited data

Results flagged for a closer look

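Between the 2 orders of the parents, the difference of total expression between 3 T genomes and 1 T genome differed by the limma test of the difference itself in the 2 genes described at the end of the report. For AT4G36220 the difference of TATT from TAAA minus that of TTTA from AATA was -1.92 on the log2 scale (SE 0.188, adjusted p = 0.0279), and for AAP4 it was -1.79 (SE 0.202, adjusted p = 0.0468). Both had 3 complete replicates in all 4 crosses. Neither passed without replicate 1, without replicate 3 or without the replicate block.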

How the results depend on the processing

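The number of calls depended on the replicate block and on which replicate pairs were used, but every gene called for total expression or for a homoeolog kept its direction under all alternatives in which it was tested. Total calls were 2035, and 216 without the replicate block, 3787 with the 12 columns of 4 crosses, and 0 to 5443 without 1 replicate. T homoeologs against copies gave 67 calls, and 4 without the block, 3144 and 11 with 1 and 0.1 RPKM added, 7 at a minimum of 5 RPKM, 2443 with 12 columns, 362 with 3 complete pairs, 0 to 3334 without 1 replicate and 8 with the addition in proportion to copies. A homoeologs against copies gave 2166 calls, and 168 without the block, 4376 and 1237 with 1 and 0.1 RPKM added, 1080 at the minimum of 5 RPKM, 3686 with 12 columns, 0 to 5462 without 1 replicate and 1369 in proportion to copies. The ratio against copies gave 2974 calls, and 7518 and 505 with 1 and 0.1 RPKM added, 984 at the minimum of 5 RPKM, 996 to 1895 without 1 replicate and 775 in proportion to copies. At the minimum of 5 RPKM fewer genes were tested, and 7162 T homoeologs, 7613 A homoeologs and 7012 ratios differed. For the difference between cross orders, total calls were 0 without the block and 0 to 2234 without 1 replicate, and 1 ratio was called with 1 RPKM added. The T share differed by 52.4 percentage points for the median gene. Without the block, 6 of the lists had calls, and in the other 14 limma called 0 of 229 genes, as given above. With 2 pairs left, the fit has a single residual degree of freedom per gene. The cause of these differences was not tested. Depth is unknown, and totals under 2 RPKM are absent, so low genes cannot be compared.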

Other observations

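Genes encoded in the organelles, which do not follow the copies of the nuclear genomes, were also listed. The T share of the summed plastid RPKM was 0.171%, 10.3% and 10.8% in replicates 1, 2 and 3 of TATT, and 0.1503%, 6.64% and 44.7% in TAAA, whereas it was 71.6% and 75.2% in the 2 libraries of AlloF8. These sums came from 2, 14 and 20 plastid genes with a value in TATT and 2, 8 and 34 in TAAA, so the libraries do not list the same genes. Organelle transcripts mostly lack long poly(A) tails, and plastid genes made up 0.251% to 1.69% of a TATT library and 0.226% to 1.05% of a TAAA library. For the 8 plastid genes tested, the median difference of total expression was 0.39.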
